A study of Mus musculus with 6 samples.

Results

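Kit is the receptor tyrosine kinase for stem cell factor, and 10 genes that act at or just below it were followed here in fetal liver cells depleted of Exosc8, a core subunit of the RNA exosome, the complex that degrades and trims RNA. The genes were chosen by symbol, as every probe on the array that carries the name Kit, Kitl, Lyn, Grb2, Gab2, Sh2b3, Ptpn6, Ptpn11, Spred1 or Spred2. They hold 14 of the 55681 non-control probes, with 1 probe for each of 7 genes, 2 probes for 2 genes (Grb2 and Sh2b3) and 3 probes for 1 gene (Spred1). Erythroid progenitors were isolated from mouse fetal liver at embryonic stage E-14.5 and infected with retrovirus. In the shExosc8 group (3 arrays) the virus carried a hairpin against Exosc8, and in the shControl group (3 arrays) a hairpin against luciferase. Cells of both groups grew for 3 days with dexamethasone, erythropoietin at 0.5 U/ml and 1% conditioned medium from CHO cells that secrete kit ligand, so the ligand was supplied to every culture. The virus came from 293T cells, a human kidney line. Total RNA of each sample was labelled with Cy3 and hybridised to a single-colour Agilent array. The labels do not say whether uninfected cells were removed, nor whether replicates were separate animals or cultures. The p-values therefore cover the spread of these 6 samples, and that spread may be technical.

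Binding of kit ligand brings Kit receptors together in pairs, which then phosphorylate each other and recruit proteins through the phosphotyrosines. Src family kinases such as Lyn and adaptors such as Grb2 and Gab2 pass the signal on to Ras and MAP kinase and to PI3-kinase and Akt. Sh2b3 (also called Lnk), the phosphatase Ptpn6 (Shp1) and the Spred proteins restrain the signal, whereas the phosphatase Ptpn11 (Shp2) is needed for full activation of Ras. In red cell precursors Kit supports survival and expansion of the early stages, and its transcript is lost as the cells mature.

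Values are given as scaled signal, the intensity of a probe after the arrays were brought to a common 75th percentile, in arbitrary units that can be compared between arrays for 1 probe but not between probes. A probe was tested where every array of 1 group or of the other showed it well above background, which held for 24836 probes. Differences are log2 values of shExosc8 minus shControl from limma, with Benjamini-Hochberg adjusted p over those probes and a threshold of 0.05. Pairs of arrays correlated at r = 0.985 to 0.997 within a group and 0.953 to 0.978 between groups, across 21615 probes. The share of non-control spots well above background was 67.3% on shControl replicate 2 and 43.1% to 49.3% on the other 5 arrays. Slide row 2 held the shExosc8 arrays and row 1 the shControl arrays, so row and group cannot be told apart. Exosc8 itself was at 40.4%, 40.0% and 57.4% of the shControl mean in shExosc8 replicates 1, 2 and 3, against 98.5%, 97.8% and 104% in the shControl arrays. Its log2 difference was -1.14 (adjusted p = 0.00606), and shExosc8 replicate 3 kept the most Exosc8 signal.

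The values below rest on single 60-base probes, so the first 30 bases are shown for the probes of the 4 genes that passed the test, to let each signal be tied to its transcript. They are in lower case because no base is singled out, and their places on mm9, the build of the files, are given with each gene below.
Kit: gtcaggtacttaaggggccacaccattgag
Kitl: tcttcagtcacaacctgcagcctgtcgtta
Ptpn11: catgagtgtatctgcatatactctgggtat
Spred2: cactatatttttcagggtgcattttaaata

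Of the 10 genes, 4 passed the test. Ptpn11 and Kitl rose, and Kit and Spred2 fell, while Lyn, Ptpn6, Sh2b3, Gab2, Grb2 and Spred1 did not pass. Kitl met the filter on dim probes through the shExosc8 arrays alone, the group in which it is high, and with all 6 arrays required above background it was not tested and 3 genes passed. Among all tested probes 27.8% passed, 14.7% by rising and 13.1% by falling. Rises thus made up 52.8% of the probes that passed, against 35.4% with the percentile taken over all probes, 16.6% without scaling between arrays, 67.8% with normexp background correction and the 75th percentile, and 48.8% with normexp and quantile normalization. The 4 of 10 genes stand beside 30.9% of the 12757 RefSeq genes with 1 probe each. The median log2 difference of the members, 1 probe per gene, was 0.005, against -0.082 for all tested probes and -0.10 for 1 probe per RefSeq gene. The groups did not overlap for the same 4 genes, and for 50.5% of all tested probes. The share that passed was therefore near that of the array as a whole.

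**Figure D1:**
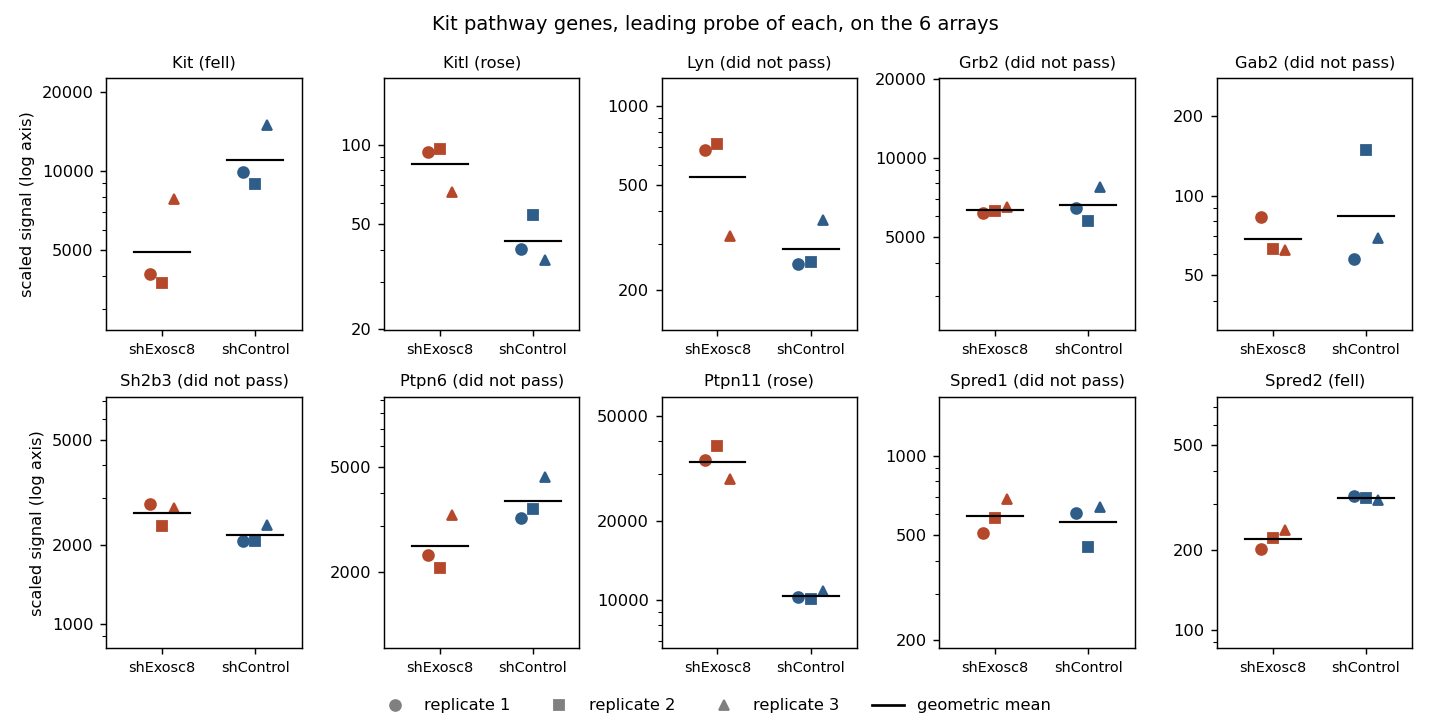
Scaled signal on a log axis of the leading probe (the probe with the highest mean) of each of the 10 genes, with shExosc8 arrays left of shControl arrays; each point is 1 array, each marker shape 1 replicate number, and the bar is the geometric mean. Ptpn11 and Kitl sit wholly above and Kit and Spred2 wholly below the shControl arrays, whereas the other 6 genes overlap.

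The sequence before the start site is shown for the 4 genes that passed the threshold, which does not mean that the others were unchanged. Each window holds the 250 bases upstream of the start in the RefSeq table of GRCm38.p6, on chr5:75574737-75574986 (plus) for Kit, chr10:100015571-100015820 (plus) for Kitl, chr5:121191398-121191647 (minus) for Ptpn11 and chr11:19924192-19924441 (plus) for Spred2. Capitals mark matches on either strand to any of 5 motifs. The GC box, the site of Sp1 and related factors, was searched as GGGCGG. The motif of ETS factors was searched as CCGGAAG, and the cyclic AMP response element as TGACGTCA. For the TATA box of core promoters the letters were TATAAA. The motif of GATA factors was searched as AGATAA, also with T for the opening letter and G for the closing letter.
Kit: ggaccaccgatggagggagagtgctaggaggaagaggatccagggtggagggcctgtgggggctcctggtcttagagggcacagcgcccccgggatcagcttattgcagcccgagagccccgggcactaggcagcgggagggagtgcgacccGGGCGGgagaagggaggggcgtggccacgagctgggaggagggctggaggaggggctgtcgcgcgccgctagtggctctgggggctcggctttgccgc
Kitl: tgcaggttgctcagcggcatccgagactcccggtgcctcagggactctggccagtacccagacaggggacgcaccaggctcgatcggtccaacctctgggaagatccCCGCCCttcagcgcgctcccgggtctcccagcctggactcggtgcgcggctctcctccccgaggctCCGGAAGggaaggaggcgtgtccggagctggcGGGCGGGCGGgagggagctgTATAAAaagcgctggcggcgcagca
Ptpn11: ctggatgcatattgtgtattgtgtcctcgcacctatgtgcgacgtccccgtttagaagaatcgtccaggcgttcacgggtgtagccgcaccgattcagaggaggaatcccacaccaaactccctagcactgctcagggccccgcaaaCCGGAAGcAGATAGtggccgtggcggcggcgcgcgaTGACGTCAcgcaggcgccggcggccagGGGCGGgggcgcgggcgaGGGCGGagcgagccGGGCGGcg
Spred2: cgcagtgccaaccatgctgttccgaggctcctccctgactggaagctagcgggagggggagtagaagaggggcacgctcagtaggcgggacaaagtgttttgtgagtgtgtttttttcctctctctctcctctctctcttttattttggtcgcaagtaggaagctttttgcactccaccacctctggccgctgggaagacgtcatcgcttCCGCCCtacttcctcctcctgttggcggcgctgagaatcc

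The Kit window held 1 GC box and none of the other motifs, and 70.8% of its bases were G or C. That of Spred2 likewise held 1 GC box, with 56.0% G or C. Ptpn11 had 3 GC boxes, 1 GATA motif, 1 cyclic AMP response element and 1 ETS motif in a window of 66.8% G or C. Kitl had 3 GC boxes, of which 2 overlap, 1 TATA box and 1 ETS motif, with 69.2% G or C. Over 32851 promoter windows of the same length, 32.74% held a GC box, 26.54% a GATA motif, 12.37% a TATA box, 6.91% an ETS motif and 1.55% a cyclic AMP response element, and the median window was 52.4% G or C. The table held a window for 8 of the 10 genes, the other two being Lyn and Gab2. A match describes the letters and not a bound site, and the absence of a match says only that these letters are not in the window.

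Kit, the receptor itself, fell to 44.9% of its shControl level (95% interval 25.7% to 78.4%). Its probe (chr5:76052394-76052453, plus strand) gave 4073, 3754 and 7834 in shExosc8 replicates 1, 2 and 3, against 9931, 8943 and 14948 in the shControl arrays. Each shExosc8 value lay below each shControl value, with shExosc8 replicate 3 and shControl replicate 3 the highest of their groups. The log2 difference was -1.16 ± 0.33 (SE, n = 3 per group; limma adjusted p = 0.0461). An exact two-sided permutation test of the 6 values gave p = 0.1, the smallest that 3 arrays against 3 can reach. The probe was printed as 2 spots, which differed by -1.19 and -1.12. In bulk RNA, fewer cells that carry Kit and less Kit RNA per cell cannot be told apart, which applies to every gene here.

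The fall of Kit was just past the threshold, as the 6565th of the 24836 probes by p. Without shExosc8 replicate 3 it was -1.49 (limma adjusted p = 0.00955). Leaving out any of the other 5 arrays ended the call. The difference was then -1.02 without shExosc8 replicate 1 (adjusted p = 0.141), -0.96 without shExosc8 replicate 2 (0.128), -1.23 without shControl replicate 1 (0.102), -1.31 without shControl replicate 2 (0.0689) and -0.94 without shControl replicate 3 (0.14). The sign stayed negative in all 20 alternative settings. Settings that changed only the filter, the dependence of variance on intensity or the replicate block left the difference at -1.16. They could not turn its sign. In the authors' deposited table the 2 Kit spots stand at -1.14 and -1.17, with adjusted p-values of 0.0999 and 0.107. That table holds 59305 non-control spots, against the 24836 probes adjusted over here. Its adjusted p-values, for Kit and for the genes below, are therefore not directly comparable with those given here. Before adjustment its limma p-values for Kit were 0.00663 and 0.00769, against 0.0122 here.

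Set against the shControl mean, Kit was at 37.1%, 34.2% and 71.3% in shExosc8 replicates 1, 2 and 3. Of these shExosc8 arrays, replicate 3 had the most Exosc8 signal and also the most Kit signal. On that array Ptpn6 (88.9%) and Lyn (112%) were nearer to the shControl mean than on replicates 1 and 2, where Ptpn6 was at 62.8% and 55.6% and Lyn at 238% and 251%. Ptpn11 was at 326%, 369% and 278% and Kitl at 219%, 225% and 154%, so both stayed above every shControl array on replicate 3 as well. Among the shControl arrays, replicate 3 was likewise the highest for Kit (136%), Ptpn6 (124%) and Lyn (128%), with Exosc8 at 104%. With 3 arrays a relation to the amount of Exosc8 was not tested.

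**Figure D2:**
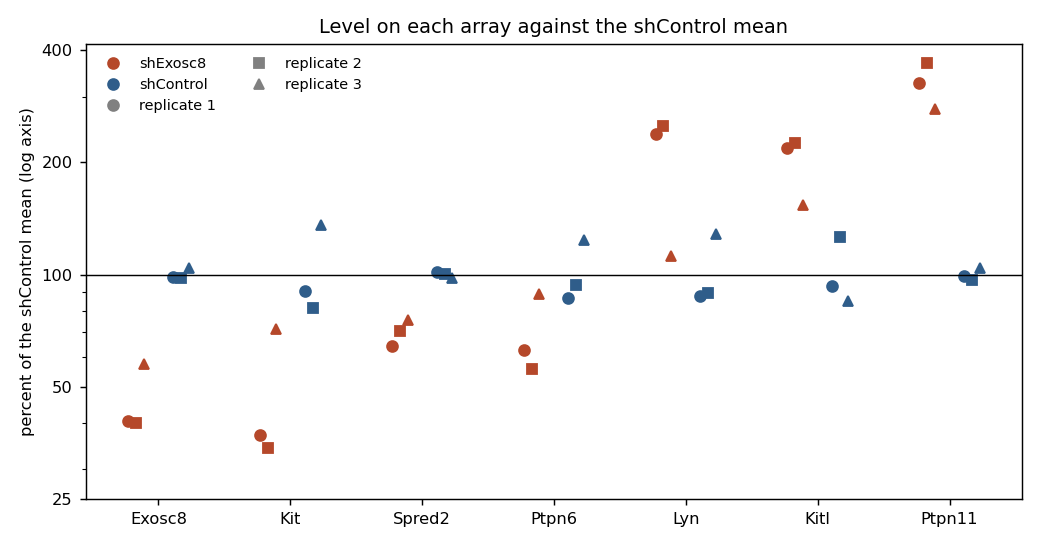
Scaled signal as percent of the shControl mean (log axis) for Exosc8 and 6 of the genes, with shExosc8 points left of shControl points and 1 marker shape per replicate. Among the shExosc8 arrays, Exosc8 and Kit are highest in replicate 3 (57.4% and 71.3%), and Ptpn11 is above every shControl array on all 3 shExosc8 arrays.

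By the root mean square difference of log2 values over the 6 arrays, with each gene centred on its shControl mean, the genes nearest to Kit among 12756 included Gm5237 (0.087), Zfp239 (0.097), Hdac7 (0.142) and Tns3 (0.143). Of these, Gm5237, Zfp239 and Tns3 fell, with log2 differences of -1.18, -1.10 and -1.02 and limma adjusted p-values of 0.0486, 0.0411 and 0.0471. Hdac7, a histone deacetylase, had -1.03 and did not pass (adjusted p = 0.0632). Gm5237 gave 298, 300.2 and 567 in the shExosc8 arrays against 705, 669 and 1255 in the shControl arrays. These genes were picked for their likeness to Kit, so their direction is part of the choice.

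Kitl, the ligand of Kit (stem cell factor), rose 1.96-fold (95% interval 1.37 to 2.81). Its probe (chr10:99558962-99559021, plus strand) gave 93.9, 96.6 and 65.9 in the shExosc8 arrays, against 40.1, 54.0 and 36.6 in the shControl arrays. This was a dim probe, well above background on all 3 shExosc8 arrays and on 2 of the 3 shControl arrays, so the size of the fold rests partly on signal near background. The log2 difference was 0.97 ± 0.22 (limma adjusted p = 0.0219; exact permutation p = 0.1). The call was lost without shExosc8 replicate 1 (0.0818), shExosc8 replicate 2 (0.071), shControl replicate 1 (0.0778) or shControl replicate 3 (0.0821), values in brackets being adjusted p. Without scaling between arrays the difference was 0.47 (adjusted p = 0.149). With normexp background correction it was 0.61 with the 75th percentile (0.0281) and 0.38 with quantile normalization (0.0483). The authors' deposited table gives Kitl 0.58 with an adjusted p of 0.212. The array measures the transcript of the cells, not the ligand added with the medium.

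Ptpn11 was the member with the largest difference and the smallest p. The phosphatase it encodes, Shp2, binds Kit directly and through Gab2 and carries the signal to Ras. Its probe (chr5:121580585-121580644, minus strand) gave 33924, 38334 and 28879 in the shExosc8 arrays, against 10299, 10067 and 10822 in the shControl arrays. The shControl arrays were close together and every shExosc8 array was well above them. Ptpn11 rose 3.22-fold (95% interval 2.58 to 4.03), with a log2 difference of 1.69 ± 0.13 (limma adjusted p = 0.000974; exact permutation p = 0.1). It ranked 244th of the 24836 probes by p and passed with any 1 of the 6 arrays left out. Among the 20 settings it missed the threshold with the slide column as a block (1.71, adjusted p = 0.0622). The authors' deposited table gives 1.74 with an adjusted p of 0.00468.

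Ptpn6 encodes Shp1, the related phosphatase that removes phosphate from Kit and from the erythropoietin receptor complex. Its probe (chr6:124671114-124671173, minus strand) gave 2328, 2065 and 3299 in the shExosc8 arrays, against 3201, 3472 and 4594 in the shControl arrays. The groups overlapped, since shExosc8 replicate 3 lay above shControl replicate 1. The log2 difference was -0.56 ± 0.22 and did not pass (limma adjusted p = 0.104; exact permutation p = 0.2). Without shExosc8 replicate 3 it passed, at -0.76 (adjusted p = 0.0281), and with the replicate number as a block it passed as well (adjusted p = 0.0331).

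Because a ratio of 2 probes on the same array does not depend on scaling, the 2 phosphatases were also set against each other. The log2 ratio of Ptpn11 over Ptpn6 was 2.38, 2.73 and 1.64 in the shExosc8 arrays, against 0.20, 0.05 and -0.25 in the shControl arrays. Its shift was 2.25 (exact permutation p = 0.1, also after adjustment over the 2 ratios computed). Each shExosc8 array thus had more Ptpn11 signal relative to Ptpn6 signal than any shControl array. Only the shift can be read from this, not the ratio itself, which compares different probes.

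Spred2, an inhibitor of Ras and MAP kinase signalling below Kit, fell to 69.9% of its shControl level (95% interval 58.4% to 83.7%). Its probe (chr11:19922416-19922475, plus strand) gave 202, 222 and 239 in the shExosc8 arrays, against 320, 316 and 310 in the shControl arrays. Each group spanned a narrow range and the groups were apart. The log2 difference was -0.52 ± 0.11 (limma adjusted p = 0.0182; exact permutation p = 0.1). The call was lost without shExosc8 replicate 1 (adjusted p = 0.0762), shControl replicate 1 (0.0746), shControl replicate 2 (0.0596) or shControl replicate 3 (0.0659). With normexp and the 75th percentile the difference was -0.32 and did not pass (0.0653). It was -0.56 with normexp and quantile normalization (0.0125) and -1.01 without scaling between arrays (0.00686). In the authors' deposited table Spred2 has -0.63 with an adjusted p of 0.114.

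Spred1, the paralog of Spred2, did not pass on either of its tested probes. The leading probe (chr2:117005906-117005965, plus strand) gave 509, 583 and 689 in the shExosc8 arrays, against 605, 452 and 640 in the shControl arrays, and the groups overlapped. Its difference was 0.07 ± 0.18 (limma adjusted p = 0.775), and that of the second probe was -0.07 ± 0.16 (0.763). The third probe of Spred1 was not well above background on any array and was not tested. The log2 ratio of Spred2 over Spred1 was -0.50, -0.56 and -0.70 in the shExosc8 arrays, against -0.09, 0.31 and -0.22 in the shControl arrays, a shift of -0.59 (exact permutation p = 0.1).

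Lyn, the Src family kinase that is prominent in red cell precursors, gave 682, 719 and 323 in the shExosc8 arrays, against 251, 255 and 369 in the shControl arrays (chr4:3718682-3718741, plus strand). In shExosc8 replicates 1 and 2 the signal was above every shControl array, and in replicate 3 it was below shControl replicate 3. The log2 difference of 0.91 ± 0.34 did not pass (limma adjusted p = 0.0886; exact permutation p = 0.2). Without shExosc8 replicate 3 it was 1.29 and passed (adjusted p = 0.00862).

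Grb2, the adaptor that links phosphotyrosines to the Ras activator Sos, did not pass on either probe. Its leading probe (chr11:115505444-115505488, minus strand) gave 6173, 6291 and 6499 in the shExosc8 arrays, against 6472, 5752 and 7743 in the shControl arrays. Its log2 difference was -0.06 ± 0.14 (95% interval -0.39 to 0.26; limma adjusted p = 0.739), and that of the second probe was -0.04 ± 0.10 (0.776). For Gab2, the scaffold that binds Ptpn11 and PI3-kinase, the probe (chr7:104453474-104453533, plus strand) gave 83.1, 62.6 and 62.2 in the shExosc8 arrays, against 57.7, 149 and 68.8 in the shControl arrays. The single high value was that of shControl replicate 2. The difference of Gab2 was -0.29 ± 0.36, and its wide 95% interval (-1.17 to 0.58) spans 0 (adjusted p = 0.564).

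Sh2b3, the adaptor that inhibits signalling from Kit and from cytokine receptors, had probes with opposite signs. The leading probe (chr5:122265548-122265607, minus strand) gave 2852, 2360 and 2751 in the shExosc8 arrays, against 2063, 2074 and 2385 in the shControl arrays. Its difference was 0.29 ± 0.13 and did not pass (limma adjusted p = 0.13). The second probe (chr5:122267299-122267358, minus strand) gave 1181, 1042 and 1401 in the shExosc8 arrays, against 1180, 1290 and 1548 in the shControl arrays, a difference of -0.15 ± 0.16 (0.505). On both probes the groups overlapped.

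**Figure D3:**
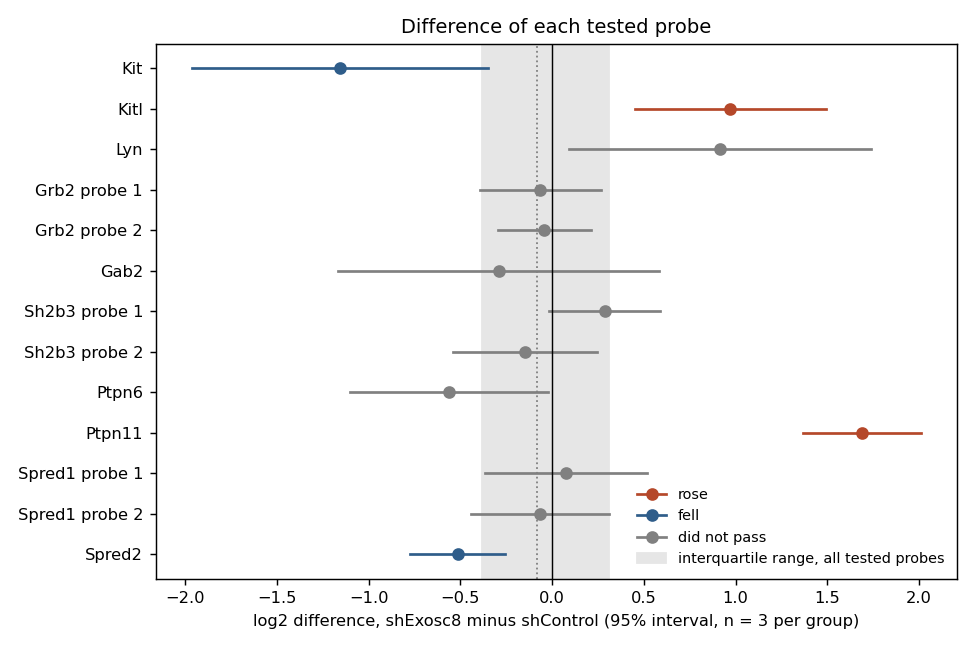
Log2 difference, shExosc8 minus shControl, of the 13 tested probes of the 10 genes with 95% intervals (n = 3 per group); the grey band is the interquartile range of all tested probes and the dotted line their median, -0.082. Ptpn11 at 1.69 stands farthest out, and the probes of Grb2 and Spred1 lie around 0.

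Across the 20 alternative settings for background, scaling, filters, variance model, blocks and arrays, Kit, Spred2, Kitl and Ptpn11 kept their signs, while their calls differed in stability. Settings that changed only the filter, the dependence of variance on intensity or the replicate block could not turn a sign. The setting read from the authors' deposited table holds the same intensities and repeats the fit as reported, so it is no further check.

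**Figure D4:**
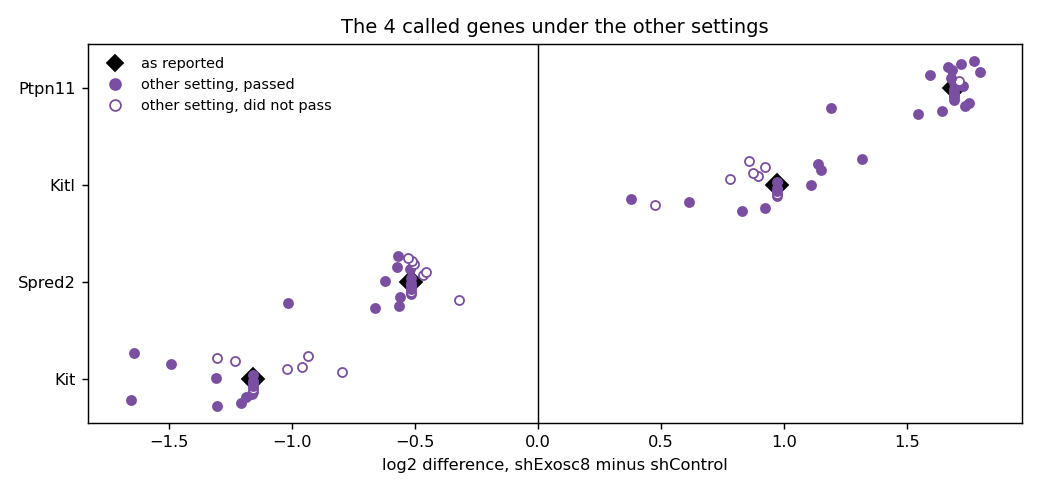
Log2 difference, shExosc8 minus shControl, of the 4 genes that passed, as reported (diamond) and under the alternative settings (circles, filled where the adjusted p was under 0.05). Ptpn11 passed in 19 of 20 settings, Kit in 13 of 20, Spred2 in 13 of 20 and Kitl in 12 of the 19 settings in which it was tested. These counts include the setting that repeats the fit as reported.

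The rest of the pathway was followed in 7 lists of other genes, 1 probe per gene, in which 129 genes were tested, 33 rose and 16 fell. With any 1 of the 6 arrays left out, 22 of these 49 genes passed every time. Of all RefSeq genes with 1 probe each, 30.9% passed. Below this share were the Ras and MAP kinase cascade (13.3%), ERK target genes (22.2%) and PI3-kinase, Akt and mTOR (25%). Above it were transcription factors (35.7%), genes that lower receptor or Ras activity (44%), kinases and adaptors near the receptor (53.1%) and other receptors (100%). The lists were not tested as sets.

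Among 32 tested kinases and adaptors near the receptor, 13 rose, 4 fell and 15 did not pass, with a median log2 difference of 0.33. Vav3, an activator of Rac, gave 703, 713 and 340 in the shExosc8 arrays against 76.2, 68.4 and 85.8 in the shControl arrays, a log2 difference of 2.86 ± 0.30 (limma adjusted p = 0.00241). Dok3, an inhibitory adaptor, rose by 1.51 ± 0.15 (0.00201). The 4 that fell were the kinases Csk and Fer and the adaptors Crk and Gab1, at -0.71, -0.47, -0.69 and -0.57, named after their values were seen. With 1 array left out, the calls were lost in 5 of 6 fits for Fer, 4 for Csk, 4 for Gab1 and 3 for Crk. Of the tested probes of each gene, 1 of 3 passed as a fall for Crk and 1 of 2 for Fer.

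Of 25 tested genes that lower the activity of the receptor or of Ras, 7 rose, 4 fell and 14 did not pass (median 0.07). Prkca, a protein kinase C that phosphorylates Kit, gave 3541, 4957 and 2652 in the shExosc8 arrays against 627, 607 and 812 in the shControl arrays, a log2 difference of 2.41 ± 0.25 (limma adjusted p = 0.00228). Ubash3b, a tyrosine phosphatase, rose by 2.13 ± 0.25 (0.0031), and Spry1, an inhibitor of Ras signalling, by 1.59 ± 0.24 (0.00669). The 4 that fell were Rasa2, a GTPase-activating protein for Ras, Cd2ap and Sh3kbp1, adaptors of receptor uptake, and Socs5, at -0.62, -0.55, -0.40 and -0.61, named after their values were seen. Socs5 was well above background on 1 of the 3 shExosc8 arrays and all 3 shControl arrays, and met the filter through the shControl arrays. Its difference was 0.16, opposite in sign, with normexp and the 75th percentile and -0.07 with normexp and quantile normalization, neither of which passed. With 1 array left out, the calls were lost in 6 of 6 fits for Sh3kbp1, 5 for Cd2ap, 4 for Socs5 and 2 for Rasa2. For Sh3kbp1, 1 of 2 tested probes passed.

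Of 15 tested genes of the Ras and MAP kinase cascade, 2 rose and 13 did not pass (median 0.04). Sos2, a Ras activator, rose by 0.85 ± 0.11 (limma adjusted p = 0.00423). Ksr1, a scaffold of the cascade, had 0.56 and did not pass (0.0531). Of 20 tested genes of PI3-kinase, Akt and mTOR, 2 rose, 3 fell and 15 did not pass (median -0.16). The regulatory subunit Pik3r2 fell to 0.545 times its shControl level (-0.88 ± 0.17, limma adjusted p = 0.0157) and Mtor fell to 0.688 times (-0.54 ± 0.10, 0.0117). Also past the threshold, and named after their values were seen, were Pik3r1 (1.51, 0.0178) and Rptor (-0.52, 0.0465). With 1 array left out, the calls were lost in 5 of 6 fits for Rptor, 4 for Pik3r1, 3 for Pik3r2 and 3 for Mtor.

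Genes that ERK signalling is known to switch on formed another list. Of 18 tested, 4 rose and 14 did not pass, and the median of the list was 0.01. Egr1 gave 618, 795 and 440 in the shExosc8 arrays against 80.2, 46.9 and 138 in the shControl arrays, a log2 difference of 2.90 ± 0.42 (limma adjusted p = 0.00591). Jun gave 15181, 19435 and 9006 in the shExosc8 arrays against 2522, 2288 and 2497 in the shControl arrays, a difference of 2.51 ± 0.28 (0.00273). Phlda1, named after its values were seen, rose by 1.60 ± 0.25 (0.0075). Fos was well above background on 3 shExosc8 arrays and 1 of the 3 shControl arrays, and met the filter through the shExosc8 arrays. Its difference was 2.15 ± 0.29 (0.00506), but 1.06 with normexp and the 75th percentile and 0.78 with normexp and quantile normalization, so its size depends on the background correction. All 4 calls held with any 1 array left out.

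Of 14 tested transcription factors of blood progenitors that are linked to the Kit gene, 2 rose, 3 fell and 9 did not pass (median 0.05). Ldb1, a cofactor of the GATA1 and Tal1 complex, gave 4172, 3781 and 3604 in the shExosc8 arrays against 8394, 8470 and 8553 in the shControl arrays, a log2 difference of -1.14 ± 0.10 (limma adjusted p = 0.00151). Fli1, an ETS factor of megakaryocytes, rose by 1.65 ± 0.35 (0.0194) and Runx1 by 0.61 ± 0.14 (0.0226). The other two that fell, named after their values were seen, were Myb (-0.89, 0.0489) and E2f4 (-0.54, 0.0238). With 1 array left out, the calls were lost in 6 of 6 fits for Myb, 5 for E2f4, 4 for Fli1 and 3 for Runx1.

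Among 5 tested receptors for other growth factors and cytokines, 3 rose and 2 fell. Flt3 gave 147, 148 and 285 in the shExosc8 arrays against 36.1, 58.4 and 62.9 in the shControl arrays and rose by 1.85 ± 0.33 (limma adjusted p = 0.0118). Csf1r, the receptor of macrophage growth factor, rose by 1.08 (0.0172), named after its values were seen, and lost its call in 4 of the 6 fits with 1 array left out. For Csf1r, 2 of 3 tested probes passed as a rise. Pdgfrb fell by 1.29 on the log2 scale (0.0126). Epor, the erythropoietin receptor, gave 41920, 36136 and 29261 in the shExosc8 arrays against 54546, 58149 and 46307 in the shControl arrays (-0.58, 0.0485, named after its values were seen), and lost its call in each of the 6 fits with 1 array left out.

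**Figure D5:**
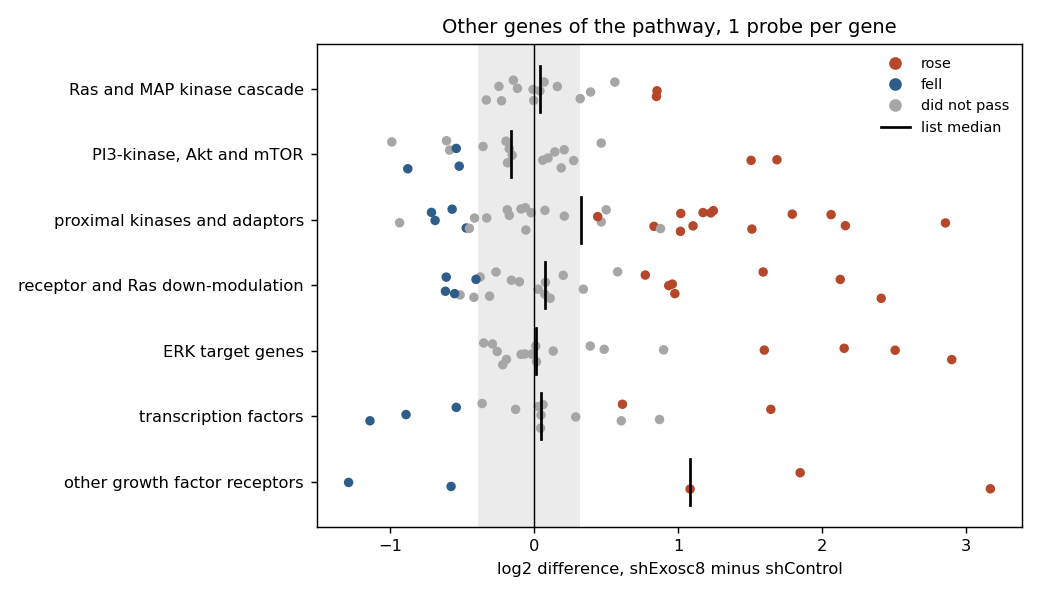
Log2 difference, shExosc8 minus shControl, of the tested genes of the 7 other lists, 1 point per gene, with the list median as a black bar and the interquartile range of all tested probes as a grey band. The medians lie between -0.16 and 0.33 except for the 5 other receptors, at 1.08.

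Markers of other cell types were read in the same way, beside the 30.9% of RefSeq genes that passed. The share of tested markers that passed ran from 16.7% (lymphoid) and 25% (early erythroid) to 100% (megakaryocyte). Summed signals, here and below, cover every marker of a list on the array, tested or not, by its brightest probe. For mast cells these were 15 genes, of which 10 were tested. Such sums include signal near background and are weighted towards the brightest probes. Kit is also carried by mast cells and by early progenitors, Csf1r is a gene of macrophages, and Fli1 is one of megakaryocytes. Of 10 tested mast cell markers, 5 rose and 5 did not pass, with a summed scaled signal of 22051 to 30135 in the shExosc8 arrays and 8393 to 16083 in the shControl arrays. The mast cell genes Tpsab1, Fcer1a, Ms4a2 and Mrgprb1 were not well above background on any of the 6 arrays. Of 11 tested stem and progenitor markers, 8 rose and 3 did not pass, with sums of 111922 to 125390 in the shExosc8 arrays and 33878 to 37092 in the shControl arrays. All 19 megakaryocyte markers rose, with sums of 400047 to 588726 in the shExosc8 arrays and 46593 to 67810 in the shControl arrays.

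Of 14 tested neutrophil and monocyte markers, 12 rose and 2 did not pass, with sums of 286710 to 375847 in the shExosc8 arrays and 120315 to 141358 in the shControl arrays. Of 9 tested macrophage markers 7 rose and 2 did not pass, with sums of 15994 to 18175 in the shExosc8 arrays and 4708 to 5893 in the shControl arrays, while Vcam1 and Mertk were not well above background on any array. For endothelial and stromal cells, the known source of kit ligand in the fetal liver, 2 of 6 tested markers rose, 1 fell and 3 did not pass, with sums of 12533 to 13530 in the shExosc8 arrays and 9504 to 12025 in the shControl arrays. Of that list Sparc (2.69) and Pecam1 (0.88) rose and Pdgfrb (-1.29) fell, while Kdr (0.26), Vim (0.23) and Col1a2 (-0.32) did not pass, all as log2 differences. Cdh5, Emcn, Col1a1, Col3a1, Pdgfra, Lum and Cxcl12 of the same list were not well above background on any of the 6 arrays. Of 9 tested hepatocyte markers 4 rose and 5 did not pass, with sums of 4016 to 5420 in the shExosc8 arrays and 2527 to 3009 in the shControl arrays, and Apob and Fgg were not well above background. Of 6 tested lymphoid markers 1 rose and 5 did not pass, with sums of 3294 to 3348 in the shExosc8 arrays and 2446 to 2759 in the shControl arrays, and Rag1 and Ebf1 were not well above background.

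Markers of the labelled cell type, 12 early and 16 tested late erythroid genes, were well above background on all 6 arrays. Of the early erythroid markers 2 rose, 1 fell and 9 did not pass, with sums of 619805 to 768076 in the shExosc8 arrays and 499585 to 638236 in the shControl arrays. Of the late erythroid markers, which appear as Kit is lost, 11 rose and 5 did not pass, with sums of 2972259 to 4731991 in the shExosc8 arrays and 2113882 to 2484565 in the shControl arrays. The part of any of these cell types in the values of Kit, Kitl, Ptpn11 and Spred2 was not tested.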

How the data were processed

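Scanner intensity values, 1 file per array, were deposited. Per the file headers, Agilent Feature Extraction 10.7.3.1 had subtracted background from them and detrended them. The authors' deposited series table holds the same intensity values, plus log2 fold changes and p-values, for which the submitters' processing notes name limma. The sources used here do not give their normalization. Coordinates are on mm9.

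From 62976 features, 3671 control spots and all outlier-flagged spots were removed, and the spots of a probe were averaged on the log2 scale. Names came from a RefSeq table by accession (27509 probes) or symbol (3549), and 24623 kept the name in the files. Each array's 75th percentile, taken over the 21615 probes (38.8%) well above background on all 6 arrays, was subtracted from log2 intensity. Probes above background throughout at least 1 group (24836) were tested with limma 3.58.1 (lmFit, eBayes, two-sided) in R 4.3.3, adjusted by Benjamini-Hochberg. Each gene was represented by its brightest probe on average. The number of arrays limits the precision, and 0 spots were saturated. The 10 members, the lists and the rule for named genes (all members, Exosc8, the 3 genes of smallest p per list and the 5 genes nearest to Kit) were chosen with earlier results of these data known. Alternatives covered background correction, scaling, filters, variance model, blocks and arrays left out. The fit was first tested on simulated arrays. No annotation of mm9 was used, so the exon that a probe lies in is not given. A few genes that the rule for named genes picks are not reported here.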

Additional observations from a re-analysis of the deposited data

How the results depend on the processing

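Of the 20 alternative settings, 19 could be set against Kitl, whose probe was not tested where all 6 arrays had to be above background. All 6 arrays share 1 slide and 1 scan, so the slide or scan block was not run. Probes called numbered 6908 as reported, 12534 without scaling between arrays, 1708 of 55660 with no filter on dim probes, 13966 with array weights, 408 with the slide column as a block, and 2876 to 10829 with 1 array left out. Member genes called numbered 4, then 1 with no filter, 7 with array weights, 0 with the slide column as a block, 5 with the replicate block and 1 to 6 with 1 array left out. Genes called in the 7 lists numbered 49, then 15 with no filter, 78 with array weights, 6 with the slide column as a block and 25 to 57 with 1 array left out. Kit was called at -1.16, had the same difference but an adjusted p of 0.174 with no filter, where more probes were tested, and was at -0.80 (0.323) with the slide column as a block. With 1 array left out it ranged from -1.49 to -0.94. In the slide column fit, shExosc8 replicate 1 and shControl replicate 3 sit alone in their columns and do not bear on the difference.

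The replicate block left 7101 probes called and moved Ptpn6 past the threshold (adjusted p = 0.0331). Kit was at -1.16 with it (0.00705). The numbers share no stated origin. Deviations of arrays with the same number correlated at 0.052, 0.21 and 0.284, and not every array correlated best with its own number, shExosc8 replicate 1 doing so with shControl replicate 2 (0.125).

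Signs turned for members that did not pass. Spred1 was at 0.07 as reported, -0.071 with the percentile over all probes, -0.42 without scaling, -0.065 with normexp and quantile normalization, -0.10 with array weights, -0.19 without shExosc8 replicate 3 and shControl replicate 2 together and -0.079 to 0.179 with 1 array left out. Gab2 was at 0.21 with normexp and the 75th percentile, 0.028 with array weights, 0.20 without both arrays and -0.56 to 0.12 with 1 array left out. Grb2 was at 0.008 with normexp and quantile normalization, 0.068 with the slide column and -0.164 to 0.051 with 1 array left out. Sh2b3 was at -0.21 and Dok1, of the lists, at -0.056 without scaling, and Socs5 was at 0.16 with normexp and the 75th percentile. The cause was not tested. The median of all tested probes was -0.58 without scaling and -0.23 with the percentile over all probes, against -0.08 as reported, so differences near 0 depend on the scaling.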
